A study of Homo sapiens with 8 samples.

Results

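The genes described here are the 9 that mark an immature thymocyte by its recombination machinery and its CD1 proteins: RAG1, RAG2, DNTT, CD1A, CD1B, CD1C, CD1D, CD1E and CD34. They were chosen by name, with earlier results of these data known. For each, the probe set carrying its symbol in the platform annotation was taken. All 9 were measured, each by 1 probe set, out of 17687 named genes, which took up 17709 of the 21448 probe sets. The study asked how NOTCH1 signalling and the miR-17-92 microRNA cluster act on the transcriptome of T-cell acute lymphoblastic leukemia (T-ALL), in 8 arrays of CUTLL1, an established human T-ALL cell line that carries a t(7;9) rearrangement and an active NOTCH1. Every group held lentivirally transduced, flow-sorted CUTLL1 cells: Empty-V cells received the vector alone, and miRNA17-92 cells the same backbone, named for its MNDU3 and PGK promoters and GFP, with the cluster. Each was cultured for 2 days with DMSO, the solvent, or with 1 uM GSI, a gamma-secretase inhibitor that stops the release of the active NOTCH1 fragment. This gave 4 groups of 2 arrays each, Empty-V DMSO, Empty-V GSI, miRNA17-92 DMSO and miRNA17-92 GSI, with the replicates numbered by set. All 4 groups are thus 1 leukemia line, and the labels do not say whether the transduced cells were pools or clones.

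RAG1 and RAG2 form the recombinase that cuts DNA beside the V, D and J segments of antigen receptor genes, and DNTT (terminal deoxynucleotidyl transferase) adds untemplated nucleotides at the joints, so that each thymocyte makes its own T-cell receptor. The CD1 proteins resemble MHC class I molecules but present lipids. CD1A, CD1B, CD1C and CD1E are abundant in cortical thymocytes and later lost from T cells. CD1D presents lipids to natural killer T cells, and CD34 marks the earliest progenitors. NOTCH1 signalling commits progenitors to the T lineage and is lowered as thymocytes mature past the stage at which the receptor beta chain is tested. The miR-17-92 cluster encodes several microRNAs from 1 transcript and is often overexpressed in lymphoid tumours.

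The vector that separates the groups adds 6 microRNAs, whose mature forms are shown because they define the perturbation. They lie on chromosome 13 of GRCh38.p14 (RefSeq), from chr13:91350618 for the first to chr13:91351382 for the last, on the plus strand, and capitals mark the seed, bases 2 to 8, by which a microRNA pairs with its targets.
hsa-miR-17-5p: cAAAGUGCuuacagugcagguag
hsa-miR-18a-5p: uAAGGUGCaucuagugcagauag
hsa-miR-19a-3p: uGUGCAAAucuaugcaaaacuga
hsa-miR-20a-5p: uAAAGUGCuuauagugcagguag
hsa-miR-19b-3p: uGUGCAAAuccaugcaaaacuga
hsa-miR-92a-3p: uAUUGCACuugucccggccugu
The seeds fall into 4 kinds: miR-17-5p and miR-20a-5p share AAAGUGC, miR-19a-3p and miR-19b-3p share GUGCAAA, and miR-18a-5p and miR-92a-3p each have a seed of their own. No probe set carries the name of the host transcript MIR17HG, so the arrays hold no direct check of the overexpression.

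Values are log2 signals after the authors' normalization. They ran from 1.97 to 18.49 with a median of 5.32, and differences between groups below are differences of log2 signals. Replicate arrays correlated at r = 0.994 to 0.995 over all probe sets, with a median absolute difference of 0.19 to 0.22. The inhibitor was visible in the NOTCH1 target genes: NRARP fell by 5.9 (limma adjusted p = 1.59e-07), DTX1 by 3.9 (adjusted p = 6.7e-06) and HES1 by 3.22 (adjusted p = 1.32e-06) on the log2 scale. All 10 T lineage markers lay above the median in every group, with group means of 7.9 to 16.74. Among markers of other cells that use some of the 9 genes, 5 of 8 for B cells, 8 of 10 for dendritic cells, 4 of 6 for myeloid cells and 4 of 6 for endothelial cells lay below the median in every group. CD79A, CD79B, ITGAX, ITGAM and VWF lay above it in every group. As many values lie below a median as above it, so these counts do not show whether such cells were absent.

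**Figure D1:**
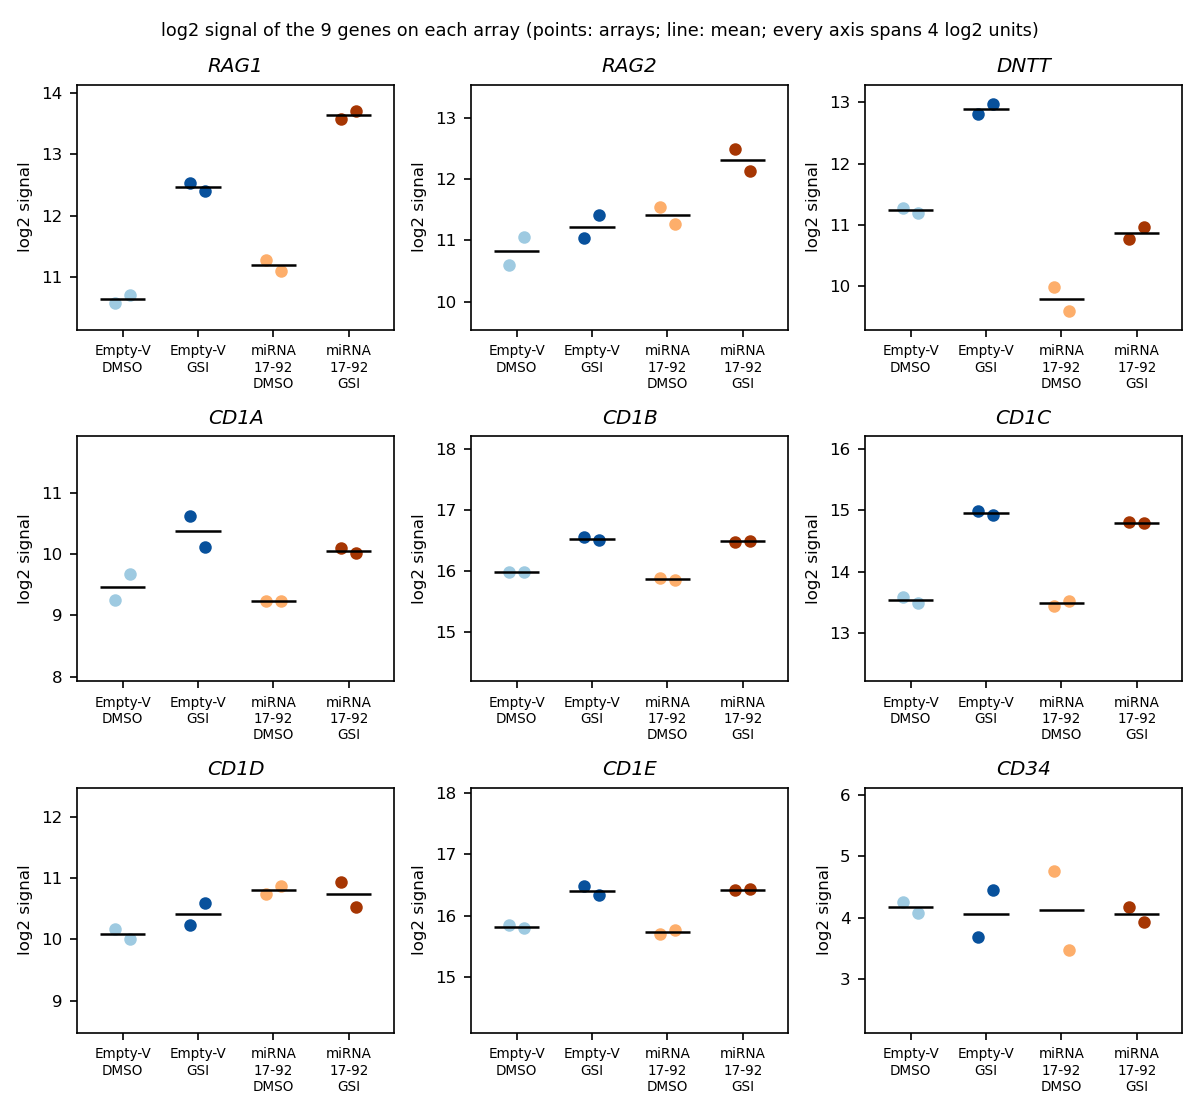
log2 signal of the 9 genes (y axis; each panel spans 4 log2 units, at its own level) in the 4 groups (x axis). Points are arrays and lines are means of 2 arrays. RAG1 reached its highest signals, 13.58 and 13.71, in miRNA17-92 GSI, and DNTT its lowest, 9.60 and 9.98, in miRNA17-92 DMSO.

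GSI raised most of the 9 genes. Averaged over both vectors, 7 of the 9 rose and none fell at an adjusted p under 0.05, whereas 7.83% of all probe sets were called in either direction and 4.35% as higher. The median difference was 0.65 for the 9 genes and 0.0 for all probe sets. RAG1 rose 4.42-fold, CD1C and DNTT each 2.58-fold, CD1A 1.82-fold, RAG2 1.57-fold, CD1E 1.56-fold and CD1B 1.49-fold. CD1D and CD34 were not called.

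RAG1, the catalytic subunit of the recombinase, is annotated at chr11:36510353-36579762 (GRCh38.p14). Its signal was 10.57 and 10.71 in Empty-V DMSO, 12.54 and 12.41 in Empty-V GSI, 11.28 and 11.10 in miRNA17-92 DMSO, and 13.58 and 13.71 in miRNA17-92 GSI. All 4 arrays with GSI were thus above all 4 with DMSO, as in 5 of the 9 genes (RAG1, CD1A, CD1B, CD1C and CD1E), and 12.0% of all probe sets separated the 4 and 4 arrays in either direction. The rise across vectors was 2.15 (SE 0.115, adjusted p = 5.65e-06), the 31st largest of 17687 named genes, and it was 2.13 in set 1 and 2.15 in set 2. Taken by vector, the rise was 1.83 in Empty-V cells (SE 0.163, adjusted p = 2.42e-04) and 2.46 in miRNA17-92 cells (SE 0.163, adjusted p = 7.28e-05).

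RAG2, the partner that binds RAG1 and reads a histone mark of active chromatin, lies beside it at chr11:36590996-36598236. The signal of RAG2 was 10.59 and 11.05 in Empty-V DMSO, 11.03 and 11.41 in Empty-V GSI, 11.54 and 11.27 in miRNA17-92 DMSO, and 12.49 and 12.13 in miRNA17-92 GSI. The arrays of Empty-V GSI overlapped those of Empty-V DMSO. In miRNA17-92 cells both GSI arrays were above both DMSO arrays, and 44.8% of all probe sets separated there in either direction. Across vectors the rise was 0.65 (SE 0.161, adjusted p = 0.0395), and with the set number as a replicate block the adjusted p was 0.0783. The call was kept only without Empty-V GSI replicate 1 or Empty-V DMSO replicate 2, and leaving out any of the other 6 arrays gave adjusted p from 0.0533 to 0.124. Within a vector the rise was 0.40 in Empty-V cells (adjusted p = 0.351) and 0.91 in miRNA17-92 cells (adjusted p = 0.102), neither of which was called.

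DNTT, at chr10:96304434-96338564, had the widest range of the 9 genes over the arrays, 3.38 log2 units. Its signal was 11.28 and 11.20 in Empty-V DMSO, 12.81 and 12.98 in Empty-V GSI, 9.98 and 9.60 in miRNA17-92 DMSO, and 10.77 and 10.96 in miRNA17-92 GSI. Both GSI arrays exceeded both DMSO arrays of the same vector, but the miRNA17-92 GSI arrays stayed under those of Empty-V DMSO. The rise with GSI was 1.36 across vectors (SE 0.130, adjusted p = 2.48e-04), 1.66 in Empty-V cells (SE 0.183, adjusted p = 9.16e-04) and 1.07 in miRNA17-92 cells (SE 0.183, adjusted p = 0.0221). The call in miRNA17-92 cells was lost with the replicate block (adjusted p = 0.0657). It was also lost without miRNA17-92 GSI replicate 1 (0.0989), miRNA17-92 GSI replicate 2 (0.133) or miRNA17-92 DMSO replicate 2 (0.156), each an adjusted p.

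The 5 CD1 genes lie together on chromosome 1, from CD1D at chr1:158178030-158186427 through CD1A, CD1C and CD1B to CD1E at chr1:158353894-158357553. In the RefSeq annotation the range of CD1C (chr1:158289923-158294774) lies inside that of CD1B (chr1:158285405-158331531). CD1C, which presents mycobacterial and self lipids, gave 13.59 and 13.49 in Empty-V DMSO, 14.99 and 14.93 in Empty-V GSI, 13.44 and 13.53 in miRNA17-92 DMSO, and 14.81 and 14.79 in miRNA17-92 GSI. The 4 GSI arrays lay above the 4 DMSO arrays, and the rise was close in size in each vector, 1.42 (SE 0.152, adjusted p = 7.72e-04) in Empty-V cells and 1.31 (SE 0.152, adjusted p = 0.00218) in miRNA17-92 cells. CD1A, the CD1 protein that also marks Langerhans cells, gave 9.25 and 9.67 in Empty-V DMSO, 10.62 and 10.12 in Empty-V GSI, 9.23 and 9.24 in miRNA17-92 DMSO, and 10.09 and 10.01 in miRNA17-92 GSI. GSI arrays again lay above DMSO arrays, and the rise across vectors was 0.86 (SE 0.151, adjusted p = 0.00843).

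CD1B, whose deep groove holds long-chain lipids, gave 15.99 and 15.98 in Empty-V DMSO, 16.55 and 16.51 in Empty-V GSI, 15.89 and 15.86 in miRNA17-92 DMSO, and 16.47 and 16.50 in miRNA17-92 GSI. CD1E, which stays inside the cell and helps to load lipids on other CD1 proteins, gave 15.84 and 15.79, 16.48 and 16.33, 15.70 and 15.76, and 16.41 and 16.44 in the same order of groups. In both genes the 4 GSI arrays lay above the 4 DMSO arrays, a separation that 12.0% of all probe sets shared in either direction. The rises across vectors were 0.58 for CD1B (SE 0.105, adjusted p = 0.0106) and 0.64 for CD1E (SE 0.109, adjusted p = 0.00735). The mean signals of CD1B and CD1E lay at the 99.6th and 99.5th percentile of all probe sets, and whether the scale is compressed there was not tested.

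CD1D, the family member that selects natural killer T cells, gave 10.17 and 10.01 in Empty-V DMSO, 10.24 and 10.59 in Empty-V GSI, 10.74 and 10.87 in miRNA17-92 DMSO, and 10.94 and 10.53 in miRNA17-92 GSI. Its GSI and DMSO arrays overlapped across vectors, and the difference was 0.13 (95% interval -0.19 to 0.45, adjusted p = 0.657). CD34 (chr1:207880972-207911125) gave 4.26 and 4.08 in Empty-V DMSO, 3.68 and 4.45 in Empty-V GSI, 4.77 and 3.48 in miRNA17-92 DMSO, and 4.18 and 3.93 in miRNA17-92 GSI. All 4 group means of CD34 were below the median of the arrays, and its replicates spread as widely as its groups. The difference with GSI was -0.09 (95% interval -0.70 to 0.53, adjusted p = 0.894), and it was -0.58 in set 1 and 0.41 in set 2.

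Within one vector fewer genes passed. In Empty-V cells 4 of the 9 rose, RAG1, DNTT, CD1C and CD1A, where 7.46% of all probe sets were called and 3.8% were called as higher. The CD1A rise there, 0.91 (adjusted p = 0.0345), lost its call with the replicate block (adjusted p = 0.073) and without any array except Empty-V GSI replicate 2 (adjusted p = 0.0513 to 0.186 without each of the other 7). In miRNA17-92 cells 3 of the 9 rose, RAG1, CD1C and DNTT, where 1.57% of probe sets were called and 0.96% were called as higher. CD1E and CD1B had differences of 0.59 and 0.55 in Empty-V cells (adjusted p = 0.0502 and 0.0603) and of 0.69 and 0.61 in miRNA17-92 cells (adjusted p = 0.0666 and 0.0927). In each vector 7 of the 9 genes had GSI and DMSO arrays that did not overlap, but with 2 arrays against 2 so did 50.1% of all probe sets in Empty-V cells and 44.8% in miRNA17-92 cells.

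**Figure D2:**
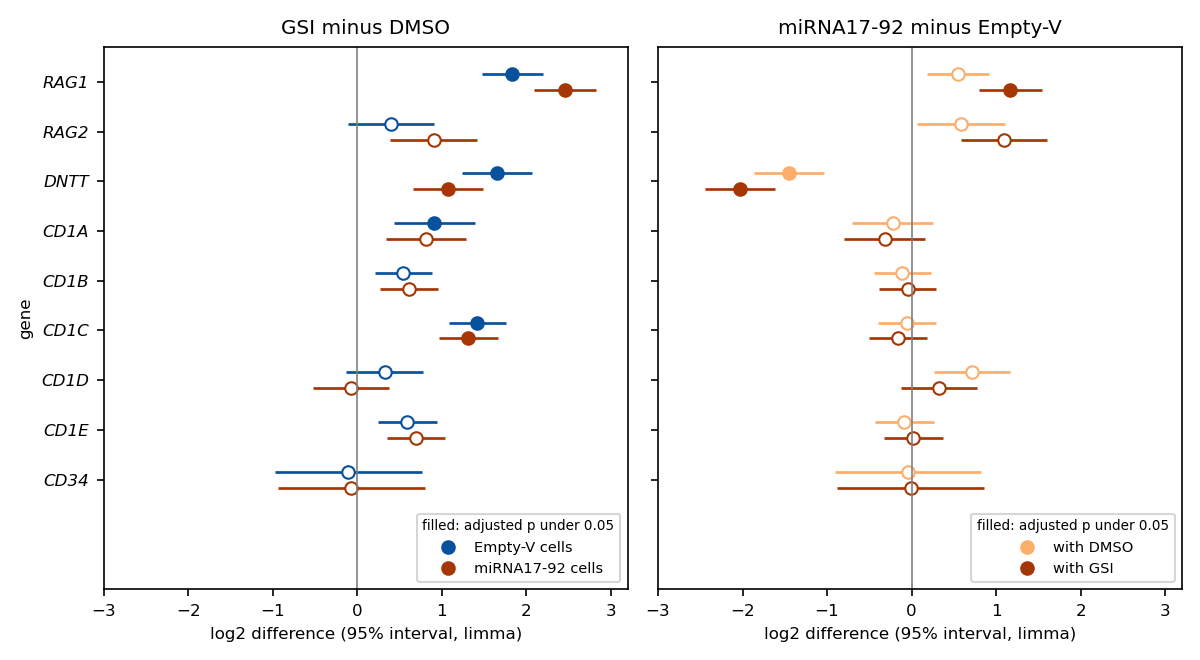
log2 differences (x axis) of the 9 genes (y axis), with 95% intervals from limma, for GSI minus DMSO by vector (left) and for miRNA17-92 minus Empty-V by treatment (right). Filled points passed an adjusted p of 0.05. RAG1, DNTT and CD1C rose with GSI in both vectors, and DNTT was lower in miRNA17-92 cells under both treatments.

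RAG1 and DNTT differed between the vectors in opposite directions. Under GSI, DNTT was lower in miRNA17-92 than in Empty-V cells by 4.08-fold and RAG1 was higher by 2.25-fold, so that 2 of the 9 genes were called where 1.07% of all probe sets were. The DNTT difference was -2.03 (SE 0.183, adjusted p = 0.00489). It lost its call without miRNA17-92 GSI replicate 1 (-1.94, adjusted p = 0.065) or Empty-V GSI replicate 2 (-1.95, adjusted p = 0.0579). The RAG1 difference was 1.17 (SE 0.163, adjusted p = 0.0229), and its adjusted p was 0.0772 with the replicate block. Leaving out any 1 of the 4 GSI arrays also ended the RAG1 call, with adjusted p of 0.148 and 0.112 without miRNA17-92 GSI replicates 1 and 2 and of 0.0781 and 0.144 without Empty-V GSI replicates 1 and 2. RAG2 differed by 1.09 (SE 0.228, adjusted p = 0.0573), and was not called. Its miRNA17-92 arrays lay above its Empty-V arrays, and 46.7% of all probe sets did not overlap in this comparison either.

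With DMSO the differences of DNTT, RAG1 and RAG2 had the same signs as under GSI and were smaller in size. DNTT was lower in miRNA17-92 cells by 2.73-fold (-1.45, SE 0.183, adjusted p = 0.0483), in a comparison where 0.042% of probe sets were called, 9 in number. That call did not survive the replicate block (adjusted p = 0.209) or the loss of any 1 of the 8 arrays (adjusted p = 0.115 to 0.395). RAG1 differed by 0.55 (adjusted p = 0.345), RAG2 by 0.58 (adjusted p = 0.467). CD1D differed by 0.71 (adjusted p = 0.321), more than under GSI, and was not called under either treatment.

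Averaged over both treatments, a comparison added after the values had been seen, the DNTT difference was -1.74 (SE 0.130, adjusted p = 0.002), the most negative of the 17687 named genes. All 4 miRNA17-92 arrays lay below all 4 Empty-V arrays for DNTT, which 5.21% of all probe sets matched in either direction. The DNTT call was kept with the replicate block (adjusted p = 0.00901) and without each of the 8 arrays in turn, and the difference was -1.67 in set 1 and -1.81 in set 2. RAG1 differed by 0.86 (SE 0.115, adjusted p = 0.0201), the 34th largest rise. Its adjusted p was 0.0724 with the replicate block and 0.057 to 0.0972 without each array in turn, so none of the 8 reduced sets kept the call. RAG2 differed by 0.84 (SE 0.161, adjusted p = 0.0533), by 1.21 in set 1 and 0.47 in set 2. In this comparison 0.821% of all probe sets were called.

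The CD1 genes and CD34 gave no call for the cluster. Under GSI the differences were -0.32 for CD1A, -0.16 for CD1C, -0.04 for CD1B, 0.02 for CD1E and -0.01 for CD34. The 95% intervals ran from -0.38 to 0.29 for CD1B, -0.33 to 0.37 for CD1E and -0.50 to 0.18 for CD1C. CD1D differed by 0.32 under GSI (95% interval -0.13 to 0.77) and, averaged over both treatments, by 0.52 (95% interval 0.20 to 0.84, adjusted p = 0.137).

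**Figure D3:**
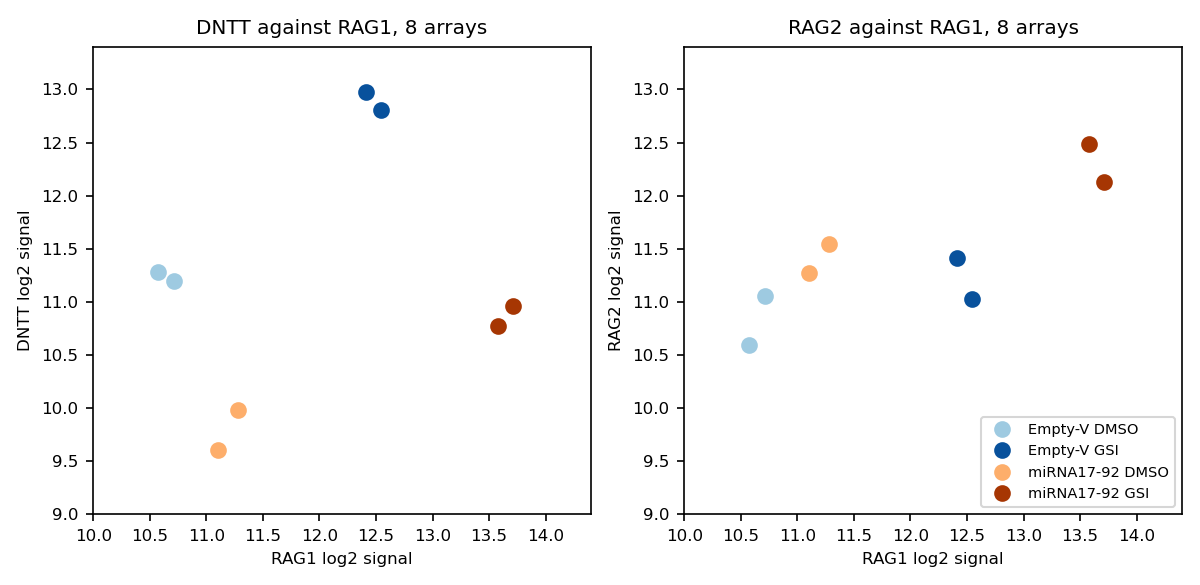
log2 signal of DNTT (left, y axis) and RAG2 (right, y axis) against that of RAG1 (x axis) on the 8 arrays, coloured by group. The 4 groups of DNTT against RAG1 stand apart, with Empty-V GSI highest in DNTT (12.81 and 12.98) and miRNA17-92 GSI highest in RAG1 (13.58 and 13.71).

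Whether the response to GSI itself differed between the vectors was tested as the difference of the 2 responses. None of the 9 genes was called by limma (1 had an unadjusted p under 0.05), where 0.028% of all probe sets were, and no alternative run called any of the 9. The RAG1 response was larger in miRNA17-92 cells by 0.62 (95% interval 0.10 to 1.14, unadjusted p = 0.0244, adjusted p = 0.331). For DNTT the response was smaller by 0.58 there (difference -0.58, 95% interval -1.16 to 0.00, adjusted p = 0.4). The CD1C interval was -0.59 to 0.38, and those of CD1B and CD1E were -0.41 to 0.54 and -0.38 to 0.59.

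The way the 9 genes followed each other over the arrays was described by Pearson's r over 8 arrays, which are 4 groups of 2 and hence far from independent points. CD1B and CD1C moved together most closely (r = 0.991), as did CD1B and CD1E (r = 0.99). RAG1 followed RAG2 (r = 0.817) more than DNTT (r = 0.259), and RAG2 and DNTT had r = -0.241. Of 687 other probe sets with a mean above the median and an SD of at least 0.5, the likest to RAG1 was GPSM3 (r = 0.995), a regulator of G protein signalling, with means of 8.14, 9.0, 8.3 and 9.43 in Empty-V DMSO, Empty-V GSI, miRNA17-92 DMSO and miRNA17-92 GSI. GNG4 (r = 0.976) and CHRNA3 (r = 0.974) came next. The likest to DNTT was RBL2 (r = 0.978), a pocket protein of the retinoblastoma family that restrains the cell cycle, with means of 11.89, 12.88, 11.24 and 11.7 in the same order. CILK1 (r = 0.967) and TMEM154 (r = 0.965) followed it. RAG2 was nearest to SLC25A35 (r = 0.959), ITM2A (r = 0.955) and SLC25A20 (r = 0.938). CD1A was nearest to LRRN1 (r = 0.98), CD1B to RHBDD2 (r = 0.997), CD1C to CD52 (r = 0.996) and CD1E to LMO4 (r = 0.992), while ANXA1 was among the nearest 3 of CD1B, CD1C and CD1E.

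The start regions of the genes with the largest differences are printed to show the sequence at their RefSeq starts. RefSeq promoter windows (GRCh38.p14, 250 bases before to 50 after a start) were found for 8 of the 9 genes, 10 windows in all. The motifs searched, on both strands, were the E box CANNTG of the E proteins, AGATAA of GATA factors, TGNGGT of RUNX factors, TGGGAA, a core shared by RBPJ and Ikaros, and GGAAGT of ETS factors. Capitals mark the E box, and the bases are written along the gene's strand. RAG1 is chr11:36510103-36510402 on the plus strand, RAG2 chr11:36598187-36598486 on the minus strand, DNTT chr10:96304184-96304483 on the plus strand and CD1C chr1:158289673-158289972 on the plus strand.
RAG1: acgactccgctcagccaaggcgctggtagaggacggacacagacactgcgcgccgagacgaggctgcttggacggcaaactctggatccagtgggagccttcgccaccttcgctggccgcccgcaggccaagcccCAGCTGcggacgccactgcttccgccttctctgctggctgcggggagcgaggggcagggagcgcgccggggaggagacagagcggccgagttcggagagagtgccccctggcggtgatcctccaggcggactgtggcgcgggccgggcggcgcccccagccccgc
RAG2: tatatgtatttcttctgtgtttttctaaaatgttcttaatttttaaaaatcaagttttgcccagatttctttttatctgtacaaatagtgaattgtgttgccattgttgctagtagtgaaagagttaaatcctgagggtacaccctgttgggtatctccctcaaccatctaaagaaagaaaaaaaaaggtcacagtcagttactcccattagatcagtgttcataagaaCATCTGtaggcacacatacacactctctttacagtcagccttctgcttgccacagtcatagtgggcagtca
DNTT: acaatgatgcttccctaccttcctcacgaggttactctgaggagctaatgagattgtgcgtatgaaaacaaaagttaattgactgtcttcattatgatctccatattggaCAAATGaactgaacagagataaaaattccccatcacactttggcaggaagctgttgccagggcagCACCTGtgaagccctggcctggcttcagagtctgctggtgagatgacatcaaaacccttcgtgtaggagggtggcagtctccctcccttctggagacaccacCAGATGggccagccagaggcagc
CD1C: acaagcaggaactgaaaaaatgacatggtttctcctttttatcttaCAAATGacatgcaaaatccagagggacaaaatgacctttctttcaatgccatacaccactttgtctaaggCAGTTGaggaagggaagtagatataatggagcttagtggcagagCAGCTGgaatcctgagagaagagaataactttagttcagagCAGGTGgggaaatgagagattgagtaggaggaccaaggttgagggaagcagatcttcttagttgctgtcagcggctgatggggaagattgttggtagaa
RAG1 and RAG2 each held 1 E box, DNTT 3 and CD1C 4. An E box was present in 8 of the 10 windows and in 68.7% of all 35116 promoters. AGATAA was in 4 of the 10 windows (10.3% of all promoters), among them RAG2, DNTT and CD1C. TGNGGT was in 3 (43.2% of all), GGAAGT in 3 (22.8%) and TGGGAA in 1, a window of CD1A (24.0%). The RAG1 window is at the start of the RefSeq gene range and overlaps the range of TRAF6, which ends at chr11:36510272. Which start these cells used was not tested. GC content was 72.3% in the RAG1 window, against 36.7% for RAG2, 49.3% for DNTT and 43.0% for CD1C.

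No measured gene beside the 9 was called as higher with GSI, where 4.35% of all probe sets were across vectors. With so few neighbours measured, a count of none is near that share and is not read as a result. Within 250 kb of RAG1 and RAG2, none of 4 measured protein-coding genes was called in any comparison, TRAF6 just before RAG1 differing by 0.06 with GSI (adjusted p = 0.788) and IFTAP, which overlaps RAG2, by 0.17 (adjusted p = 0.743). None of 6 genes near DNTT and none of 9 measured near the CD1 genes was called either, and 7 of those 9 lay below the median of the arrays in every group. Near CD34, 2 of 4 genes fell with GSI: CR1, a complement receptor, by 0.99 (adjusted p = 0.00158) and its neighbour CR1L by 1.02 (adjusted p = 0.00584). Both had low signals. The group means of CR1L, 2.62 to 4.0, all lay below the median of the arrays, and those of CR1, 4.54 to 5.96, lay on both sides of it.

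**Figure D4:**
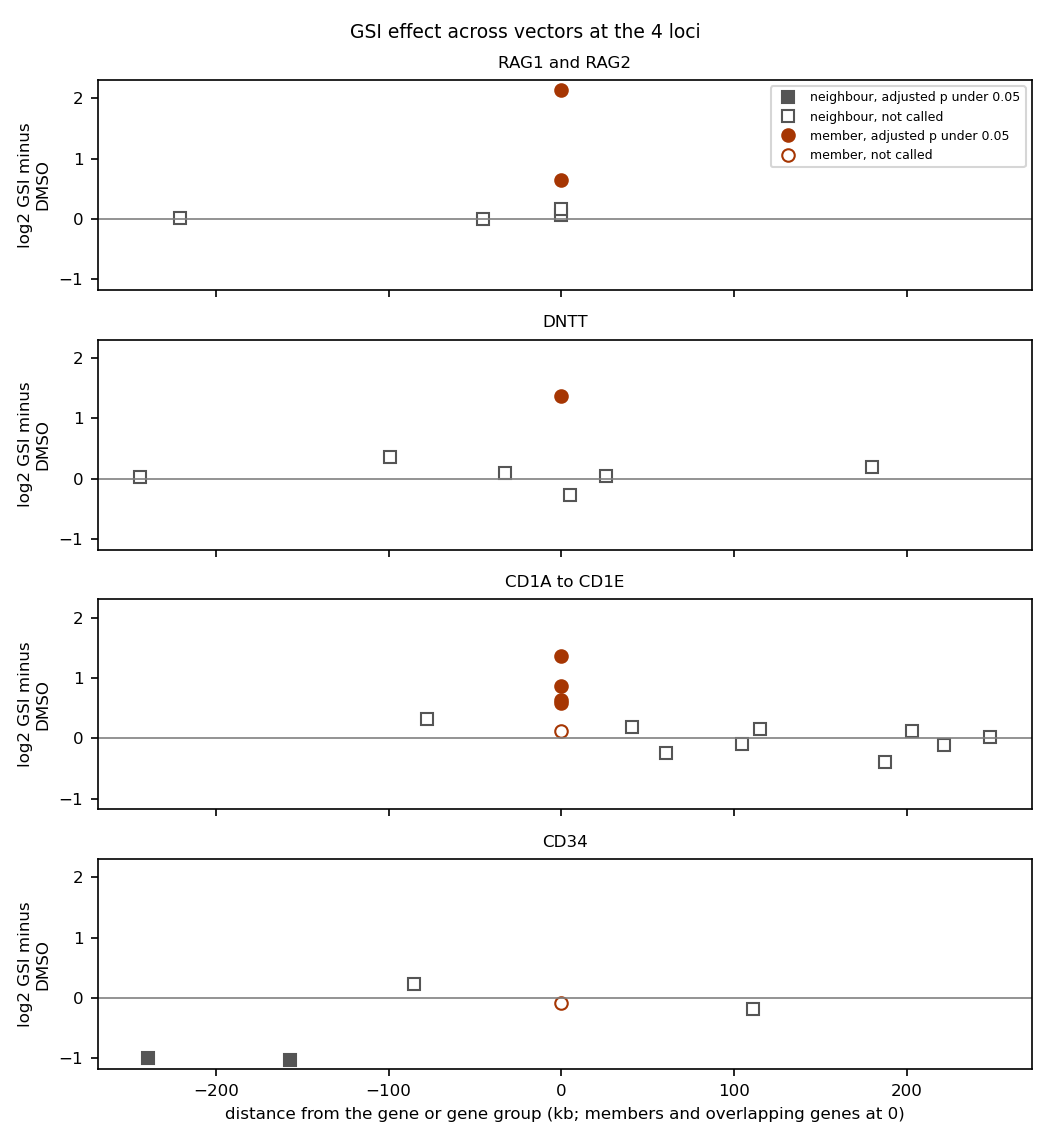
log2 difference of GSI minus DMSO across vectors (y axis) for the 9 genes (circles, drawn at 0) and for measured protein-coding genes within 250 kb (squares, by distance in kb on the x axis) at the 4 loci. Filled symbols passed an adjusted p of 0.05. No neighbour of RAG1, RAG2, DNTT or the CD1 genes was filled, and CR1 and CR1L near CD34 were lower. Of all probe sets, 7.83% were called in this comparison.

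The partners of recombination were described by lists of genes, whose counts stand beside the 4.35% of all probe sets called higher with GSI across vectors. Of 16 measured genes that join the cut ends or serve the recombinase, 2 rose with GSI across vectors, none fell, and the median was -0.03. Those were LIG4, the ligase that seals the joints (1.46, adjusted p = 5.3e-05), and ATM, the kinase that senses the breaks (0.90, adjusted p = 0.00536). LIG4 had means of 9.10 in Empty-V DMSO, 10.74 in Empty-V GSI, 9.90 in miRNA17-92 DMSO and 11.18 in miRNA17-92 GSI. Its groups had the same order as those of RAG1. Averaged over treatments, the comparison added after the values had been seen, LIG4 was higher in miRNA17-92 cells by 0.62 (adjusted p = 0.0439). In that comparison 0.821% of all probe sets were called. LIG4 was not called under GSI alone (0.45, adjusted p = 0.179) or DMSO alone (0.80, adjusted p = 0.187). Of 18 measured regulators described for RAG, DNTT or CD1 genes, 8 rose with GSI across vectors, none fell, and the median was 0.33. Within Empty-V cells 8 rose and 1 fell, where 3.8% of all probe sets were called higher. In miRNA17-92 cells 2 rose, IKZF3 and GATA3, where 0.96% were called higher. The 4 with the smallest adjusted p were IKZF3 (1.47, adjusted p = 8.58e-05), GATA3 (1.41, adjusted p = 1.12e-04), RUNX1 (0.83, adjusted p = 0.00202) and TCF12 (0.71, adjusted p = 0.0054), all transcription factors of lymphocytes. None of the 18 was called for the cluster under GSI or for the difference of the 2 GSI responses. SATB1, a chromatin organizer of thymocytes, was higher in miRNA17-92 cells by 0.87 in the same average over treatments (adjusted p = 0.0253). It was not called under GSI alone (0.68, adjusted p = 0.0946) or DMSO alone (1.07, adjusted p = 0.114). Whether the LIG4 and SATB1 calls hold under the alternative runs was not tested.

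Of genes that fold, traffic or load CD1 proteins, none of 16 measured was called with GSI across vectors, and the median was -0.02. In Empty-V cells 1 of the 16 was called, GLA, which fell (-0.90, adjusted p = 0.0133), where 7.46% of all probe sets were called. GLA was also the 1 called for the cluster under GSI, as higher (1.00, adjusted p = 0.0356), where 1.07% were called. Of 19 measured cortical thymocyte genes, 9 rose and 2 fell with GSI across vectors, with a median of 0.36. CCR9, the chemokine receptor of thymocytes, rose by 4.56 (adjusted p = 5.77e-07) and CD38 by 1.54 (adjusted p = 4.46e-05), while CHI3L2 fell by 2.63 (adjusted p = 4.6e-06) and PTCRA, the pre-receptor alpha chain and a NOTCH1 target, fell by 1.88 (adjusted p = 1.66e-04). Under GSI, 2 of the 19 were called higher in the cluster cells, CD8B (2.04, adjusted p = 0.0144) and CHI3L2 (1.04, adjusted p = 0.0437). CCR9 was called lower (-1.56, adjusted p = 0.0286), where 1.07% of all probe sets were called in either direction. That comparison called 230 probe sets, and 33 with the replicate block. Whether these 3 calls are kept with the block was not tested. Of 15 early progenitor genes, 1 rose with GSI across vectors (MEIS1, 0.92, adjusted p = 0.00126), 1 fell (SPI1, -0.50, adjusted p = 0.044), and the median was -0.07.

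Markers of the T lineage moved with GSI as well, and their part in the rise of the 9 genes was not tested. Across vectors 5 of 10 were called higher, with CD2 at 2.22 (adjusted p = 1.52e-05) and LAT at 1.12 (adjusted p = 4.6e-04). Of all probe sets, 4.35% were called higher in this comparison and 7.83% in either direction. Their summed log2 signal per array was 119.42 to 119.54 in Empty-V DMSO, 125.06 to 126.81 in Empty-V GSI, 119.05 to 119.09 in miRNA17-92 DMSO and 122.95 to 123.03 in miRNA17-92 GSI. Of dendritic cell markers, which share CD1 genes with thymocytes, 1 of 10 was called (XCR1, 0.50, adjusted p = 0.0499). The group means of XCR1, 4.14 to 5.14, all lay below the median of the arrays. The sum of the dendritic cell markers stayed between 38.63 and 40.62 in all groups. None of 8 B cell, 6 myeloid or 6 endothelial markers was called with GSI. In lists this short, counts of none or 1 are near the share of all probe sets and are not read as results. In bulk RNA, more cells that express a gene and more RNA per cell cannot be told apart.

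**Figure D5:**
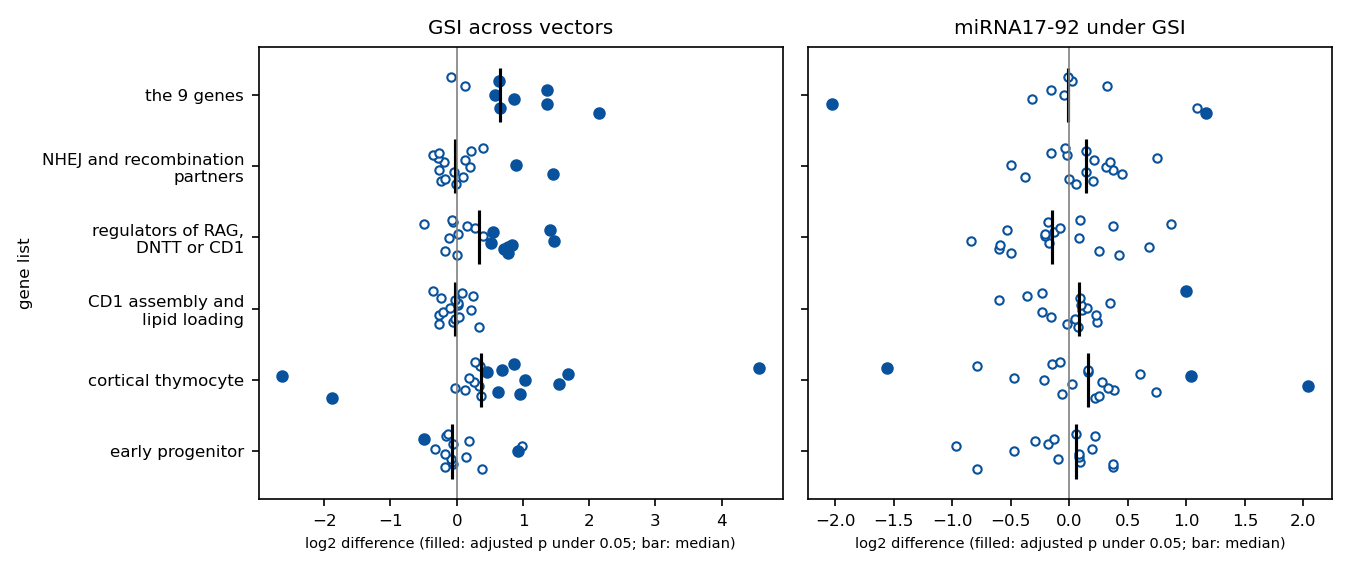
log2 differences (x axis) of single genes, by list (y axis), for GSI across vectors (left) and for miRNA17-92 minus Empty-V under GSI (right). Filled points passed an adjusted p of 0.05 and bars are medians, 0.65 for the 9 genes, 0.33 for the regulators and -0.02 for CD1 assembly on the left.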

How the data were processed

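Total RNA of the 8 CUTLL1 samples was hybridized to GeneChip Human Clarion S arrays. The authors summarized and normalized them at gene level by SST-RMA in the Transcriptome Analysis Console on hg38 and deposited log2 values, which were used as given. The platform annotation gives 1 gene symbol for 17709 probe sets, several for 0 and none for 3739. Arrays have no read depth, and their number limits the precision. The 9 genes and all lists were chosen with earlier results of these data known, and every member is named. Of each list, up to 4 genes with the smallest adjusted p were named. Groups and set numbers came from the sample titles. limma 3.58.1 in R 4.3.3 was fitted to all 21448 probe sets with 4 group means over all 8 arrays (4 residual degrees of freedom), and p-values were adjusted by Benjamini-Hochberg over all probe sets, with a threshold of 0.05. The code was checked on simulated data. The methods describe 2 independent biological experiments, and sets 1 and 2 were taken as these, which no source states outright. Deviations from the group means of arrays with the same set number correlated at -0.24 to -0.192 for the 6 pairs of groups. With 2 arrays a group, p-values measure the spread between these arrays only. Alternatives were a looser threshold, the replicate block, crossed set numbers, a filter on dim probe sets, quantile normalization, an intensity trend with a robust fit, a fit on 4 arrays, and leaving out each array.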

Additional observations from a re-analysis of the deposited data

How the results depend on the processing

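Counts below are genes of the 9 called by limma. With GSI across vectors the count was 7, and 6 to 7 under every alternative run. In Empty-V cells it was 4, and 3 to 6. In miRNA17-92 cells it was 3, and it became 2 with the replicate block, with only 4 arrays, or without miRNA17-92 GSI replicate 1, miRNA17-92 GSI replicate 2 or miRNA17-92 DMSO replicate 2. It became 5 at an adjusted p of 0.1, 6 without dim probe sets and 7 with the intensity trend and robust fit, which added RAG2, CD1A, CD1B and CD1E. For the cluster under GSI the count was 2, and 1 with the replicate block or with only 4 arrays, 3 at an adjusted p of 0.1, with crossed numbers, without dim probe sets or with the intensity trend and robust fit, and 0 to 2 without each array in turn. For the cluster under DMSO it was 1, and 0 with the replicate block, crossed numbers, quantile normalization, only 4 arrays or any array left out. Across treatments the cluster count was 2, and 1 with the replicate block, 4 with the intensity trend and robust fit, and 1 without each array in turn. The response difference gave 0 throughout.

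The replicate block changed no other call of the 9 genes than those given with the results. With crossed set numbers, 1758 probe sets were called for GSI across vectors and 172 for the cluster under GSI.

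Over all probe sets, GSI across vectors called 1680, and 1006 with the replicate block, 2727 at an adjusted p of 0.1 and 2673 with the intensity trend, and 953 to 1341 without each array in turn. GSI in Empty-V cells called 1601, against 825, 2599 and 2551, 841 with only 4 arrays, and 514 to 1310 without each array. GSI in miRNA17-92 cells called 336, against 178, 623 and 721, 177 with only 4 arrays, and 127 to 285 without each array. The cluster under GSI called 230, against 33, 927 and 1232, 34 with only 4 arrays, and 4 to 85 without each array. Under DMSO it called 9, against 3, 9 and 45, 5 with crossed numbers or quantile normalization, 0 with only 4 arrays, and 0 to 3 without each array. The response difference called 6, against 1, 21 and 111, 1 with crossed numbers, and 0 to 2 without each array. Across treatments 176 became 25, 525 and 726, and 6 to 37 without each array. Without dim probe sets the 7 counts were 2506, 2359, 582, 911, 39, 14 and 532, the last for the average over treatments.

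Signs turned only for differences that were not called. With quantile normalization these were CD1E under GSI (-0.10) and CD34 under GSI (0.061), CD1B in the response difference (-0.015), and CD34 across treatments (0.012). Leaving out each array in turn turned CD34 with GSI across vectors (-0.41 to 0.23), in Empty-V cells (-0.49 to 0.28) and in miRNA17-92 cells (-0.71 to 0.57), CD1D with GSI in miRNA17-92 cells (-0.28 to 0.14), CD1E and CD34 for the cluster under GSI (-0.055 to 0.095 and -0.40 to 0.38), CD34 under DMSO (-0.69 to 0.60), CD1A and CD34 in the response difference (-0.34 to 0.15 and -0.61 to 0.68), and CD1E and CD34 across treatments (-0.07 to 0.005 and -0.35 to 0.29). The cause of these changes was not tested. Each gene has 1 probe set, so the alternative of another probe set could not be run. CD34, with all 4 group means below the median of the arrays, is the 1 gene of the 9 whose signal may lie near background, and no background values were used here.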
